A study of Mus musculus with 6 samples.

Results

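The genes described here are 7 membrane transport genes of the mouse corneal epithelium: the water channel genes Aqp3 and Aqp5, the sodium pump beta subunit genes Atp1b1 and Atp1b3, the cotransporter gene Slc12a2, the chloride channel gene Cftr and the organic anion transporter gene Slco4a1. They were chosen by symbol, and all 7 were found among the 25006 genes of the deposited count table and passed the filter on low counts. RNA was sequenced from sheets of corneal epithelium, the layered surface of the cornea, of mice labelled EphA2 null (3 libraries) and of wild type mice (3 libraries). EphA2 is a receptor tyrosine kinase for ephrin-A ligands, and the series title sets the comparison in a study of cilia, autophagy and the architecture of this epithelium. The sources used here do not give the strain, the age or how the null allele was made, and the labels do not say whether the libraries come from separate animals, so p-values measure the spread between these libraries, which may be technical. The sample titles also carry numbers in a lower range (the library labelled EphA2 null 1, wild type 1 and wild type 2) and a higher range (the libraries labelled EphA2 null 2 and 3, and wild type 3), and the labels do not say what the numbers stand for. Libraries labelled EphA2 null 2 and 3 share a number, as do wild type 1 and 2, and whether such a pair comes from the same animal is not stated. The titles also carry a letter, which differs within each such pair and whose meaning is not given.

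The corneal epithelium faces the tear film with its outer cells and the stroma with its basal cells, and it moves salt and water between them. The sodium pump, made of a catalytic alpha and a glycosylated beta subunit, keeps cell sodium low. That gradient drives the sodium, potassium and chloride cotransporter encoded by Slc12a2 to load the cell with chloride, which leaves through channels such as Cftr, and water follows through aquaporins. Aqp5 passes water, and Aqp3 passes water and glycerol. Slco4a1 encodes a carrier of organic anions, thyroid hormones among them.

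Library totals lay between 15308013 and 27586942 counts. Epha2 itself had 285, 653 and 578 CPM (counts scaled to the library's TMM-normalised size, per 1e+06) in libraries labelled EphA2 null 1, 2 and 3, and 298, 253 and 563 CPM in wild type 1, 2 and 3, so its level does not show the labelled genotype, and every direction by genotype rests on the label. By title number Epha2 did not overlap, like 58.3% of all tested genes, with means of 598 CPM at higher and 279 CPM at lower title numbers. The defining corneal keratin gene Krt12 had between 13063 and 16025 CPM in the 6 libraries. Of 8 stromal markers 6 were detected, and their sum ran from 10.4 to 16.9 CPM, most of it from Pdgfra (9.89 to 16.4 CPM), with the keratocyte genes Kera and Lum at 0 counts. Of 6 corneal endothelial markers 5 were detected, with Slc4a11 at 9.85 to 36.6 CPM, Col8a1 at 1.19 to 11.7 CPM, Col8a2 at most at 0.148 CPM and Cdh2 at 0 counts. The conjunctival keratin gene Krt13 had between 2173 and 3821 CPM.

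The 7 genes differed widely in level. Per kilobase of exon, Aqp5 had a mean of 1888 CPM over the 6 libraries and ranked 16th of the 24991 genes with a known length, and Aqp3 had 1324 CPM and ranked 22nd. Atp1b3 followed with 252 CPM per kilobase, Slc12a2 with 48.9, Slco4a1 with 15.9, Atp1b1 with 2.51 and Cftr with 0.488. Each gene lay above the next in all 6 libraries. The ranges over libraries overlapped only for the first pair, since Aqp5 ran from 1296 to 2465 and Aqp3 from 1054 to 1545 CPM per kilobase. The next smallest step, from Slc12a2 to Slco4a1, was 3.07-fold between the means. With the longest transcript in place of all exons, the order of the 7 genes was the same.

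**Figure D1:**
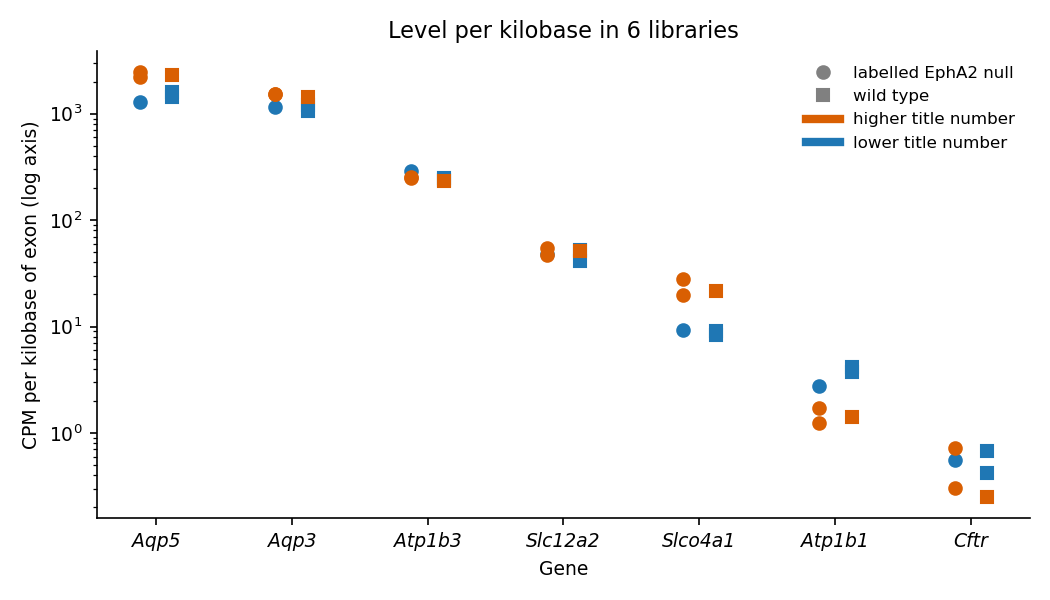
Level of each gene in CPM per kilobase of exon (log axis), with 1 point per library: circles are libraries labelled EphA2 null and squares wild type, orange marks the higher and blue the lower title numbers. Means run from 1888 for Aqp5 to 0.488 for Cftr, and Slco4a1 and Atp1b1 separate by colour in opposite directions.

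The sequence before the start of transcription is shown for 3 of these genes: Aqp3, as an abundant one, and Slco4a1 and Atp1b1, which differed most between the title number ranges (values below). The RefSeq promoter table for GRCm38.p6 held 6 of the 7 genes, and Slc12a2 was not matched. Each line gives the 250 bases before the RefSeq start, read on the strand of the gene: chr4:41098184-41098433 on the minus strand for Aqp3, chr2:180455995-180456244 on the plus strand for Slco4a1 and chr1:164458356-164458605 on the minus strand for Atp1b1. None of the 3 windows holds an exon in GENCODE M21. Capitals mark matches, on either strand, to the following motifs. TATAAA is the core promoter box of that name, CCAAT is bound by the factor NF-Y, GGGCGG is the GC box, CACGTG is the E-box, TGANTCA is the AP-1 motif and TGACGTCA is the cAMP response element.
Aqp3: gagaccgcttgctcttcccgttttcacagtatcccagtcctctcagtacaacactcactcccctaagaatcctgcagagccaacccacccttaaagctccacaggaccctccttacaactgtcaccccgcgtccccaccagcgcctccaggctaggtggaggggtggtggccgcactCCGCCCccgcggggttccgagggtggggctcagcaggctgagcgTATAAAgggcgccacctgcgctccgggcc
Slco4a1: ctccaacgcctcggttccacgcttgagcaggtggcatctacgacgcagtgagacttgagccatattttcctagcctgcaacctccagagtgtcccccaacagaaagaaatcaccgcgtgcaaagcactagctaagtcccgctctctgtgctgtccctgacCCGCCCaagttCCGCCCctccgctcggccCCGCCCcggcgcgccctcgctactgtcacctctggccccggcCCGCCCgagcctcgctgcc
Atp1b1: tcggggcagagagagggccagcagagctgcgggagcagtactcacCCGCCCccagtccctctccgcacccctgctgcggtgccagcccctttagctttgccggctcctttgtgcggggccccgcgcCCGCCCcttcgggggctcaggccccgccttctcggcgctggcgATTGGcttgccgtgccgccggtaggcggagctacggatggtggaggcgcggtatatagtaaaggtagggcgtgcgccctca
Aqp3 had a TATAAA match that began 29 bases before the start, and 1 GC box. Slco4a1 had 4 GC boxes before the start shown, and a further RefSeq start within the gene had none in its window. Atp1b1 had 2 GC boxes and a CCAAT match, on the opposite strand, whose first base in this reading lay 81 bases before the start. Over 32841 windows of this length in the table, 12.4% held TATAAA, 33.9% held CCAAT, 32.7% held GGGCGG, 6.02% CACGTG, 6.75% TGANTCA and 1.55% TGACGTCA. A match is a description of letters, and binding was not measured.

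The water channel genes were not separated by genotype. Aqp5 (ENSMUSG00000044217, chromosome 15, 99590782 to 99594829 in GRCm38, plus strand) had 3369, 5792 and 6407 CPM in libraries labelled EphA2 null 1, 2 and 3, and 4143, 3735 and 6000.3 CPM in wild type 1, 2 and 3. The genotypes overlapped, and the 3 high values are those of the 3 libraries with higher title numbers. As a log2 fold change (labelled EphA2 null over wild type) this was 0.17 ± 0.28 (SE, n = 3 each; adjusted p = 0.9996, edgeR's quasi-likelihood test with Benjamini-Hochberg adjustment). It was -0.23 among lower and 0.02 among higher title numbers, so its sign was not stable.

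Aqp3 (ENSMUSG00000028435, chromosome 4, 41092722 to 41098183 in GRCm38, minus strand) had 2132, 2776 and 2825 CPM in libraries labelled EphA2 null 1, 2 and 3, and 2217, 1928 and 2652 CPM in wild type 1, 2 and 3. These groups overlapped too. Their log2 fold change was 0.19 ± 0.18 (SE; edgeR, adjusted p = 0.9996), and it was 0.04 among lower and 0.08 among higher title numbers.

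Both aquaporin genes were higher in the libraries with higher title numbers. For Aqp5 the means were 6066 ± 313 CPM in the 3 libraries with higher and 3749 ± 387 CPM in the 3 with lower title numbers (SD), a log2 fold change of 0.71 ± 0.13 (SE), or 1.63-fold (adjusted p = 0.00410, edgeR with genotype as a term). For Aqp3 they were 2751 ± 89.3 CPM and 2092 ± 149 CPM, a log2 fold change of 0.35 ± 0.11, or 1.28-fold (adjusted p = 0.0290, edgeR). Neither gene overlapped between the ranges. Such differences were common, since 44.6% of the 13147 genes tested were called by title number and 58.3% did not overlap. Within a genotype the ranges are set against each other as 1 library against 2 that share a title number, so those values are given without a test. Among libraries labelled EphA2 null the log2 fold change by title number was 0.85 for Aqp5 and 0.39 for Aqp3, and among wild type libraries it was 0.61 for Aqp5 and 0.36 for Aqp3. The Aqp3 call was lost when the library labelled EphA2 null 1 was left out (0.212 as adjusted p, edgeR), and likewise wild type 2 (0.122) or wild type 3 (0.115), and with library size only (0.0536) or upper quartile factors (0.0873). The Aqp5 call was lost when the library labelled EphA2 null 1 was left out (0.0699 as adjusted p, edgeR).

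Per kilobase, Aqp5 exceeded Aqp3 by a factor of 1.47, 1.60 and 1.59 in libraries labelled EphA2 null 2 and 3 and wild type 3 (higher title numbers), and of 1.11, 1.32 and 1.36 in the library labelled EphA2 null 1 and wild type 1 and 2 (lower title numbers). This ratio within a library does not depend on library scaling, and it did not overlap between the ranges. Of all tested genes taken singly, 58.3% did not overlap either. How often ratios of other gene pairs do so was not computed, so this is no result about the pair.

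**Figure D2:**
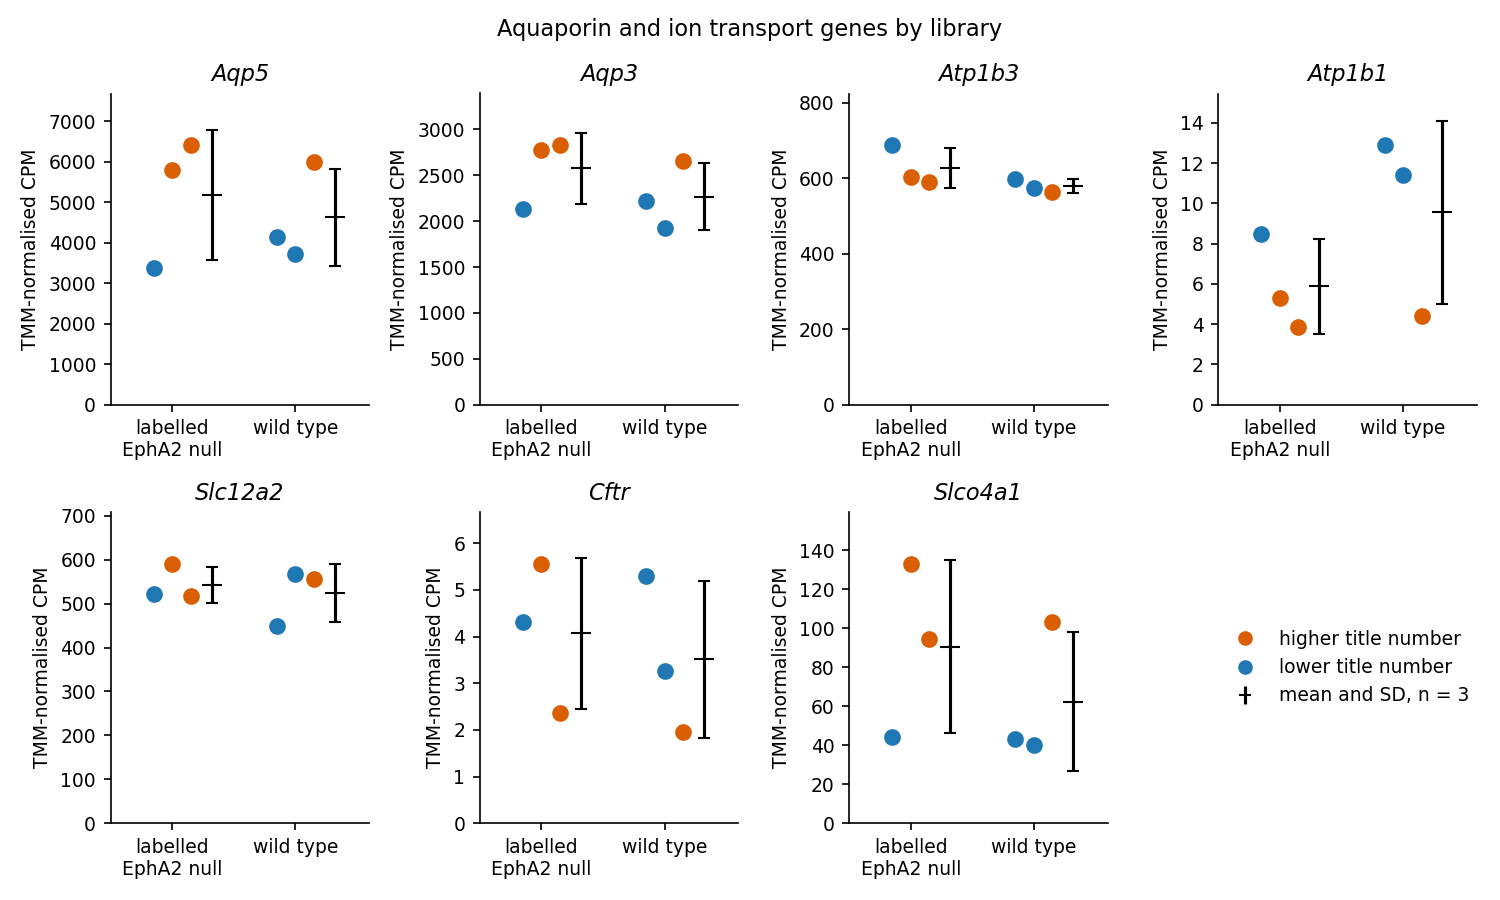
TMM-normalised CPM of each gene in every library, labelled EphA2 null left and wild type right, with bars for mean and SD (n = 3). Orange marks the higher and blue the lower title numbers. In Aqp5, Aqp3 and Slco4a1 the orange points lie above the blue ones and in Atp1b1 below them, whatever the genotype label.

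The sodium pump beta subunits were measured at very different levels. Atp1b3 (ENSMUSG00000032412, chromosome 9, 96332655 to 96364442 in GRCm38, minus strand), which encodes the beta-3 subunit, had 687, 604 and 589 CPM in libraries labelled EphA2 null 1, 2 and 3, and 599, 573 and 562 CPM in wild type 1, 2 and 3. Its values stayed close together, with a coefficient of variation of 7.33% over the 6 libraries, the lowest of the 7 genes. The log2 fold change by genotype was 0.12 ± 0.12 (SE; adjusted p = 0.9996, edgeR), and by title number, higher over lower, -0.15 ± 0.09 (adjusted p = 0.189, edgeR). With library size only or upper quartile factors the difference by title number was -0.25 (adjusted p = 0.0420) and -0.26 (adjusted p = 0.0455), so it passed under those scalings.

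Atp1b1 (ENSMUSG00000026576, chromosome 1, 164437109 to 164458355 in GRCm38, minus strand), which encodes the beta-1 subunit, had 8.49, 5.31 and 3.85 CPM in libraries labelled EphA2 null 1, 2 and 3, and 12.9, 11.4 and 4.39 CPM in wild type 1, 2 and 3. The genotypes overlapped. The log2 fold change by genotype was -0.71 ± 0.44 (SE; adjusted p = 0.9996, edgeR), and it was -0.52 among lower and 0.06 among higher title numbers. By title number the groups did not overlap, with 4.52 ± 0.742 CPM at higher and 10.9 ± 2.24 CPM at lower title numbers (SD, n = 3 each). Atp1b1 was 2.28-fold lower at higher title numbers (log2 fold change -1.19 ± 0.21, SE; adjusted p = 0.00390, edgeR). This call held without each library in turn (log2 fold change from -1.50 to -0.91, adjusted p of at most 0.0337). Without a test, the log2 fold change by title number was -0.90 among libraries labelled EphA2 null and -1.47 among wild type libraries. In a bulk sample, fewer cells that express a gene and less of its RNA per cell cannot be told apart.

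Exons of Atp1b1 share 575 bases with exons of Nme7 on the opposite strand. The strand setting of the counts is not given in the sources used here, so reads of this stretch could belong to either gene. Nme7, which was taken up after its values were seen, was also lower at higher title numbers, with -0.41 ± 0.11 as its log2 fold change (SE; adjusted p = 0.0154, edgeR). Its part in the Atp1b1 difference was not tested.

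Of the beta subunit RNA per kilobase, Atp1b1 made up 0.678%, 0.503% and 0.601% in libraries labelled EphA2 null 2 and 3 and wild type 3 (higher title numbers), and 0.949%, 1.64% and 1.52% in the library labelled EphA2 null 1 and wild type 1 and 2 (lower title numbers). Atp1b3 made up at least 98.3% in every library, and Atp1b2 and Atp1b4 had at most 6 counts in any.

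Slc12a2 (ENSMUSG00000024597, chromosome 18, 57878678 to 57946821 in GRCm38, plus strand), which encodes the cotransporter NKCC1, had 523, 591 and 517 CPM in libraries labelled EphA2 null 1, 2 and 3, and 449, 567 and 556 CPM in wild type 1, 2 and 3. The groups overlapped both by genotype and by title number. The log2 fold change was 0.05 ± 0.14 (SE) by genotype (adjusted p = 0.9996, edgeR) and 0.08 ± 0.12 by title number (adjusted p = 0.589, edgeR). The estimate by title number changed sign with library size only (-0.011) and with upper quartile factors (-0.023), so no direction is given for this gene.

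Cftr (ENSMUSG00000041301, chromosome 6, 18170687 to 18322768 in GRCm38, plus strand), the gene of the cAMP-activated chloride channel, was the lowest of the 7, with 94, 113 and 63 counts in libraries labelled EphA2 null 1, 2 and 3, and 110, 56 and 29 counts in wild type 1, 2 and 3. These are 4.31, 5.56 and 2.35 CPM in libraries labelled EphA2 null, and 5.31, 3.26 and 1.96 CPM in wild type. The genotypes overlapped, and so did the title number ranges, although the lowest value of each genotype was at a higher title number. The log2 fold change by genotype was 0.20 ± 0.44 (SE; adjusted p = 0.9996, edgeR), with 0.01 among lower and 1.01 among higher title numbers, and by title number it was -0.60 ± 0.41 (adjusted p = 0.262, edgeR). The estimate by title number moved with several libraries. It was -1.17 (adjusted p = 0.210, edgeR) without the library labelled EphA2 null 1, -1.002 without EphA2 null 2 (0.0200), -0.37 without EphA2 null 3 (0.451), -0.36 without wild type 1 (0.503) and -0.16 without wild type 3 (0.831). Without a test, it was -0.14 among libraries labelled EphA2 null and -1.14 among wild type libraries. The interaction of genotype with title number for Cftr had an unadjusted p of 0.228 and an adjusted p of 0.99996 (edgeR), so a difference between the genotypes in this respect was not detected. Exons of Cftr share 129 bases with the antisense gene Gm15592, which has no row in the count table.

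Slco4a1 (ENSMUSG00000038963, chromosome 2, 180456245 to 180474867 in GRCm38, plus strand) showed the largest difference of the 7 genes by title number. It had 44.2, 133 and 94.4 CPM in libraries labelled EphA2 null 1, 2 and 3, and 43.4, 40.1 and 103 CPM in wild type 1, 2 and 3. The 3 lower values lay close together and belonged to the 3 libraries with lower title numbers. The means were 110.3 ± 20.2 CPM at higher and 42.6 ± 2.18 CPM at lower title numbers (SD, n = 3 each), 2.48-fold higher (log2 fold change 1.31 ± 0.14, SE; adjusted p = 0.00190, edgeR). The call held without each library in turn (log2 fold change from 1.22 to 1.42, adjusted p of at most 0.0279). Without a test, the log2 fold change by title number was 1.36 among libraries labelled EphA2 null and 1.31 among wild type libraries. By genotype the log2 fold change was 0.54 ± 0.49 (SE; adjusted p = 0.9996, edgeR), and it was 0.08 among lower and 0.14 among higher title numbers.

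By genotype, 0 of the 7 genes passed an adjusted p of 0.05 in edgeR, DESeq2 or limma voom, and 0 of them reached an unadjusted p of 0.05. Over all 12847 tested genes edgeR called 0.00778%, and 1.18% had an unadjusted p under 0.05. None of the 7 separated the genotypes without overlap, as 3.73% of all tested genes did. Their median log2 fold change was 0.17, against 0.01 over all tested genes. When the fit also held the title number range, the log2 fold changes of the 7 genes lay between -0.26 for Atp1b1 and 0.44 for Cftr, and again 0 of 7 passed (adjusted p of 0.9999 for each, edgeR), against 0.00761% of 13147 tested genes. These p-values do not show that the genotypes were alike, since the SE of the genotype difference reached 0.49 for Slco4a1.

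By title number, 4 of the 7 genes passed in edgeR, Slco4a1, Aqp5 and Aqp3 as higher and Atp1b1 as lower, against a background of 44.6% of 13147 tested genes (22.9% higher and 21.6% lower). The same 4 did not overlap between the ranges, which held for 58.3% of all tested genes (29.8% higher and 28.5% lower), and 53.6% of all tested genes had an unadjusted p under 0.05. With so many genes called, 4 of 7 is no result about these genes as a group. DESeq2 and limma voom called these 4 as well. When counts of libraries with the same title number were added up (4 samples remain), the 4 genes again passed: Slco4a1 at 1.32 (adjusted p = 0.00715), Aqp5 at 0.73 (0.00941), Atp1b1 at -1.18 (0.00996) and Aqp3 at 0.37 (0.0326, edgeR throughout). Each combination of genotype and range then holds 1 sample, so these p-values lean on the spread shared over all genes. The same fit called 5189 genes.

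**Figure D3:**
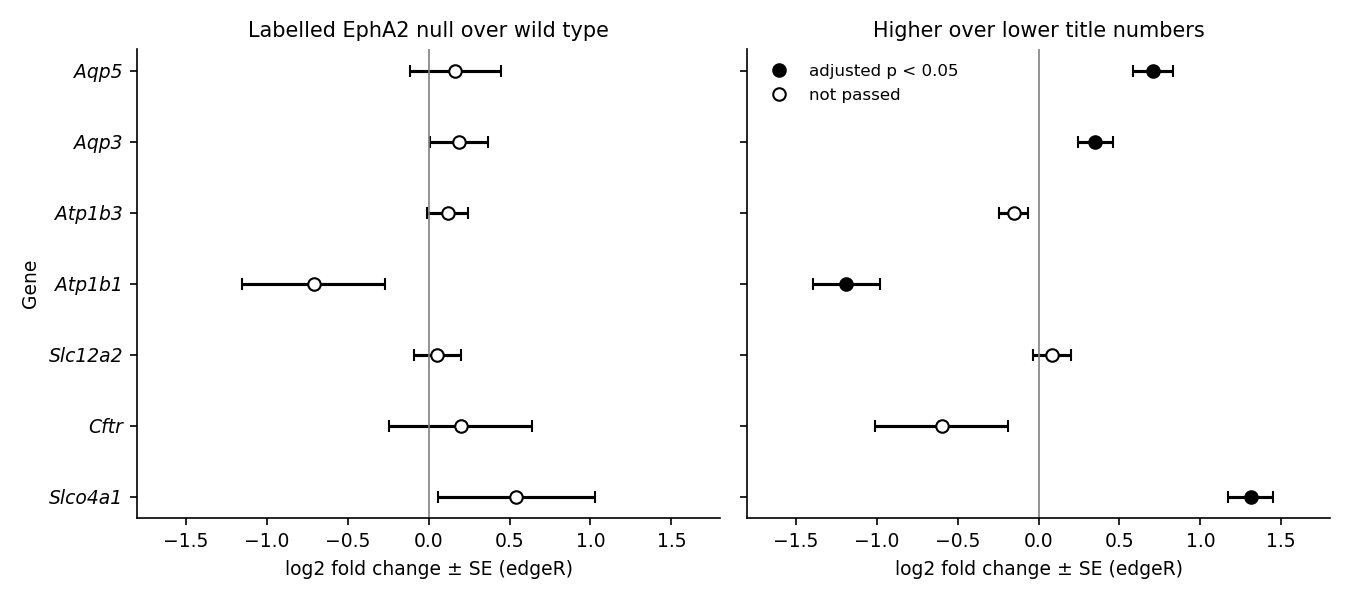
Log2 fold change ± SE (edgeR) of each gene, labelled EphA2 null over wild type (left) and for higher over lower title numbers (right). Filled points passed an adjusted p of 0.05: none by genotype, and Aqp5, Aqp3 and Slco4a1 (positive) and Atp1b1 (negative) by title number.

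Other genes of water and ion transport were taken from 9 lists. By genotype, edgeR called 0 of the 105 that were tested, and an unadjusted p under 0.05 was found for 3 (1.18% over all tested genes). By title number, 34 were higher and 19 lower of 111 tested (47.7%, against 44.6% of all genes), with a median log2 fold change of 0.14 against -0.03 over all genes. The share called in each list below is read against these 44.6%, made up of 22.9% higher and 21.6% lower. The lists are small, and no count is a result about a list as a group. All adjusted p-values in the next paragraphs are from edgeR for higher over lower title numbers, with genotype as a term. The library labelled EphA2 null 1 weighs on them, since 21 of the 31 named genes lost their call without it, against at most 8 without any other library. This is not particular to the named genes, because calls over all genes fell from 5859 to 846 without that library.

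Among the 4 other aquaporin genes tested, 1 was lower and 1 higher (50% called, against 44.6% of all genes). Aqp4, best known as the water channel of glial cells, had 1.62, 0.822 and 0.675 CPM in libraries labelled EphA2 null 2 and 3 and wild type 3 (higher title numbers), and 5.37, 4.97 and 3.67 CPM in the library labelled EphA2 null 1 and wild type 1 and 2 (lower title numbers). Its log2 fold change was -2.37 ± 0.33 (SE; adjusted p = 0.00255), opposite to Aqp3 and Aqp5. Aqp6 had 24 counts at higher and 6 at lower title numbers in all, a depth-adjusted ratio of 3.86 (exact 95% counting interval 1.54 to 11.5; adjusted p = 0.0476). Of the sodium pump list, 1 of 4 tested genes (25%) passed, Fxyd3, which encodes a small regulator of the pump (log2 fold change -0.43 ± 0.09, SE; adjusted p = 0.00580).

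Cation chloride cotransporters and the kinases that regulate them had 6 higher and 2 lower of 13 tested (61.5% called, against 44.6% of all genes). The WNK kinases act on these cotransporters through Stk39 and its relative Oxsr1. Wnk4 (log2 fold change 1.02 ± 0.23, SE; adjusted p = 0.0102), Wnk2 (0.98 ± 0.21; 0.00756) and Wnk1, added after its values were seen (0.52 ± 0.10; 0.00483), were higher. Stk39 was lower (-0.73 ± 0.17; adjusted p = 0.0108), and Slc12a9 was higher (0.74 ± 0.20; adjusted p = 0.0191).

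Chloride channel genes other than Cftr had 6 higher and 2 lower of 26 tested (30.8% called, against 44.6% of all genes). Ano1, a calcium-activated chloride channel gene, was lower (log2 fold change -1.22 ± 0.36, SE; adjusted p = 0.0260). Lrrc8a, whose product is required in every volume-regulated anion channel, was higher (0.9999 ± 0.18; adjusted p = 0.00434), as was its partner Lrrc8d (0.75 ± 0.22; 0.0264). Of the other partners, looked up after these values were seen, Lrrc8b (0.65 ± 0.12; 0.00466) and Lrrc8c (0.52 ± 0.14; 0.0172) were higher and Lrrc8e had 0.40 ± 0.16 (0.0727). The endosomal exchanger gene Clcn6 was higher (0.83 ± 0.16; 0.00486). Among genes that regulate or anchor Cftr, 5 were higher and 1 lower of 13 (46.2% called). The higher ones include Prkaca, the catalytic subunit of protein kinase A (0.72 ± 0.15; 0.00618), Gopc, which directs Cftr to degradation (0.70 ± 0.14; 0.00545), Ezr, which ties membrane proteins to actin (0.49 ± 0.11; 0.00909) and the adenylyl cyclase gene Adcy6 (0.44 ± 0.15; 0.0422).

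Genes of the epithelial sodium channel and its regulators had 5 higher and 1 lower of 11 tested (54.5% called, against 44.6% of all genes). Scnn1a, its alpha subunit, was higher (log2 fold change 0.62 ± 0.10, SE; adjusted p = 0.00362), and so was Nedd4l, the ubiquitin ligase that removes the channel from the membrane (0.68 ± 0.12; 0.00387). The beta and gamma subunit genes, added after their values were seen, were not called. Scnn1b (mean 0.583 CPM) had 0.43 ± 0.51 (0.516) and Scnn1g (mean 1.46 CPM) had 0.89 ± 0.37 (0.0794). The membrane protease gene St14 (0.61 ± 0.13; 0.00787) was higher together with the protease inhibitor genes Spint1 (0.70 ± 0.13; 0.00434) and Spint2 (0.49 ± 0.10; 0.00690), the last named because it completes the 5. The lower one was Prss8, also a channel-activating protease gene, named after its values were seen (-0.28 ± 0.09; 0.0380). Of the organic anion transporters, 3 were higher and 2 lower of 8 (62.5% called). The prostaglandin transporter gene Slco2a1 (1.48 ± 0.28; 0.00508) and Slco3a1 (0.81 ± 0.14; 0.00357) were higher, like Slco4a1, while Slco1a5 (-1.82 ± 0.32; 0.00402) and Slco4c1 (-1.74 ± 0.38; 0.00795) were lower.

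Potassium channel genes had 2 higher and 4 lower of 14 tested (42.9% called, against 44.6% of all genes), and all 4 named by size were lower. Kcnj2, an inward rectifier gene, had 1.38, 0.934 and 1.28 CPM in libraries labelled EphA2 null 2 and 3 and wild type 3 (higher title numbers), and 9.36, 7.57 and 10.4 CPM in the library labelled EphA2 null 1 and wild type 1 and 2 (lower title numbers). Its log2 fold change was -2.96 ± 0.24 (SE; adjusted p = 0.00190). Kcnj16, another of this family, had 26 counts at higher and 353 at lower title numbers, a depth-adjusted ratio of 0.0710 (exact 95% counting interval 0.0457 to 0.106; adjusted p = 0.00190), and Kcne3, an accessory subunit gene, had 2 against 44, a ratio of 0.0438 (0.00515 to 0.168; adjusted p = 0.00477). Kcnj15 was lower too (-1.20 ± 0.30; adjusted p = 0.0137). Of the proton and bicarbonate genes, 6 were higher and 5 lower of 18 (61.1% called). Carbonic anhydrases, which interconvert carbon dioxide and bicarbonate, went both ways. Car12, a membrane form, was lower (-1.51 ± 0.18; adjusted p = 0.00200), as were the cytosolic Car2 (-1.29 ± 0.40; 0.0310) and Car13, added after its values were seen (-1.17 ± 0.16; 0.00239). Car14 was higher (1.54 ± 0.54; 0.0481), and both Car14 and Car2 had under 1 CPM in each library. The sodium bicarbonate exchanger gene Slc4a8 had 32 counts at higher and 7 at lower title numbers, a ratio of 4.41 (exact 95% counting interval 1.91 to 11.8; adjusted p = 0.0321), but the library labelled EphA2 null 3 had only 1 of the 32, so the ranges overlapped. These intervals cover counting error only.

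**Figure D4:**
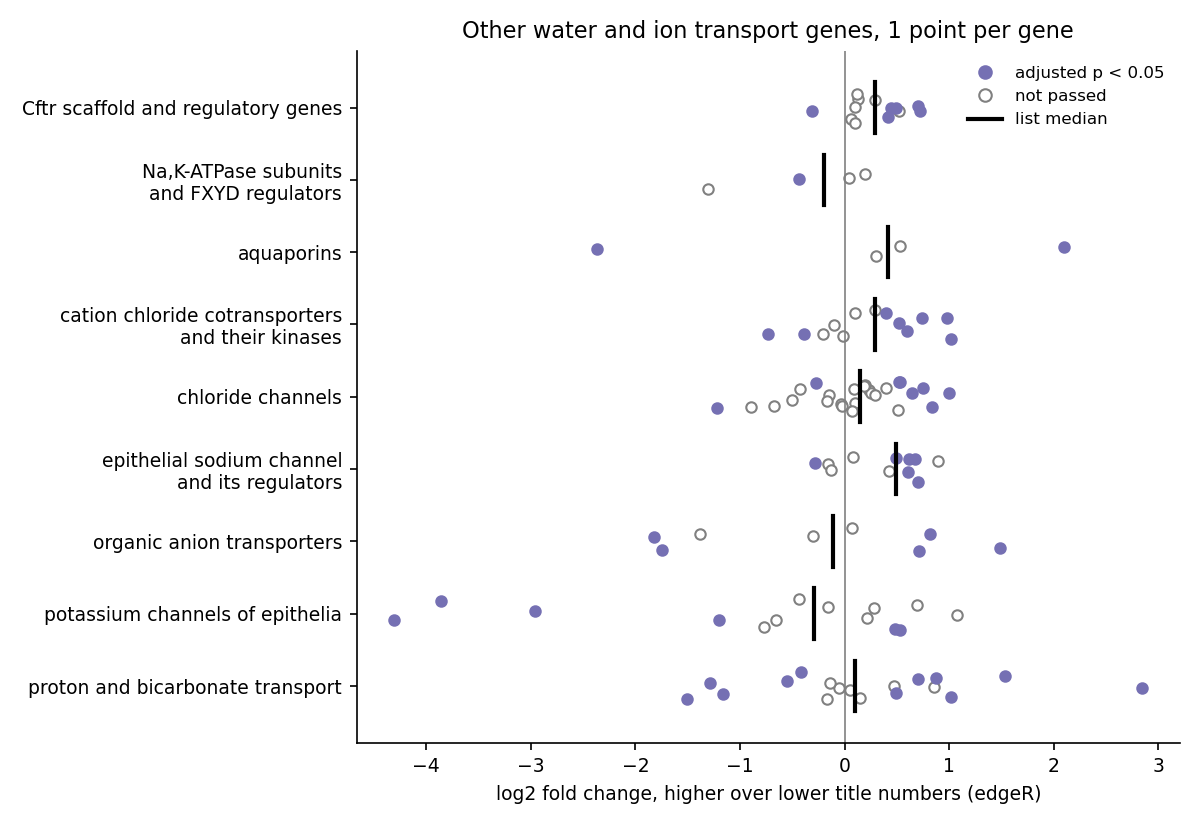
Log2 fold change by title number (higher over lower, edgeR) of the 111 tested genes in 9 transport lists, 1 point per gene, filled where the adjusted p is under 0.05, with a bar at each list's median. The potassium channel gene Kcne3 lies at -4.31 and the proton and bicarbonate gene Slc4a8 at 2.85. Both had few counts (2 at higher and 44 at lower title numbers for Kcne3, 32 and 7 for Slc4a8).

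Markers of other cells also differed by title number, and their counts are read against the 44.6% of all tested genes that were called (22.9% higher and 21.6% lower). Of 8 markers of conjunctival and goblet cell epithelium, 5 were lower at higher title numbers and 0 higher, and their summed level ran from 3296 to 6010 CPM at higher and from 4906 to 6328 CPM at lower title numbers. Muc5ac, the goblet cell mucin gene, had 2.21, 1.68 and 0.675 CPM in libraries labelled EphA2 null 2 and 3 and wild type 3 (higher title numbers), and 58.8, 38.5 and 5.24 CPM in the library labelled EphA2 null 1 and wild type 1 and 2 (lower title numbers). Of 7 leukocyte markers tested (8 listed), 6 were lower and 0 higher (Ptprc had at most 0.270 CPM at higher and at least 1.40 CPM at lower title numbers), and the sum of the 8 listed ran from 279 to 322 CPM at higher and from 281 to 322 CPM at lower title numbers because Itgam alone had at least 266 CPM in every library. Of 8 corneal epithelial markers, 3 were higher and 0 lower. That is 37.5%, under the 44.6% of all genes called in either direction and over the 22.9% called higher. The sum of these 8 markers ran from 74822 to 82030 CPM at higher and from 57842 to 65574 CPM at lower title numbers. Of the corneal endothelial, stromal and nerve lists only 2, 1 and 2 genes had enough counts to be tested, and of these Slc4a11, listed for the endothelium, was higher. By genotype 0 of the markers tested passed (edgeR). The part of these cells in the differences of Atp1b1, Aqp3, Aqp5, Slco4a1 and the listed transport genes was not tested.

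**Figure D5:**
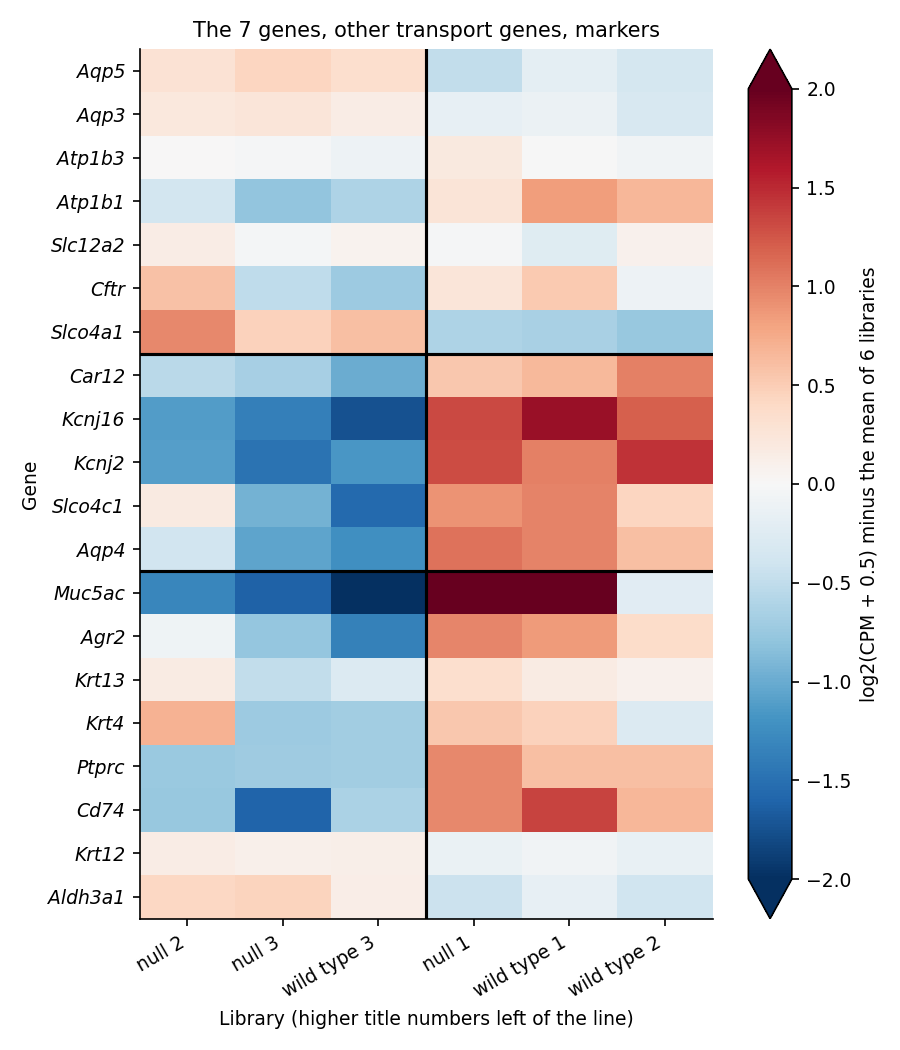
Log2(CPM + 0.5) of the 7 genes (top), of 5 transport genes lower at higher title numbers (middle) and of goblet cell, conjunctival, leukocyte and corneal markers (bottom), each minus its mean over the 6 libraries. The 3 libraries with higher title numbers stand left of the line. There Atp1b1, Car12, Kcnj2 and Muc5ac are low, and Aqp5, Aqp3 and Slco4a1 are high. The 5 transport genes were picked among the lower ones, while of the 111 tested list genes 34 were higher and 19 lower. The markers shown are a part of each list. Colours saturate at 2 in either direction.

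The genes most alike to each of the 7 over the 6 libraries were found as those with the smallest root mean square difference of centred log2 CPM, among the 10083 genes (10084 for Cftr) whose mean reached 5 CPM. For Aqp5 they were Ccdc6 (0.00730) and Nol9 (0.0186), and for Aqp3 they were Ptpn9 (0.0233) and Baiap2 (0.0276), but 565 and 633 genes lay within 0.1 of Aqp5 and of Aqp3. Atp1b3 had Cnih4 (0.0151) nearest, with 756 genes within 0.1, and Slc12a2 had BC005561 (0.0473) and Dhps (0.0561), with 123 within 0.1. The root mean square of Atp1b3 about its own mean was only 0.0928, so a gene without any variation would also lie within 0.1 of it. Slco4a1 had Ccdc162 (0.0822) within 0.1 and Trib1 (0.104) next. Atp1b1 (Sox4 at 0.132 and Fut9 at 0.139) and Cftr (Sectm1b at 0.124 and Gipc2 at 0.125) had 0 genes within 0.1. All these genes were measured in the same 6 libraries. Aqp5, Aqp3, Slco4a1 and Atp1b1 did not overlap between the title number ranges, while Atp1b3, Slc12a2 and Cftr did.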

How the data were processed

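RNA-seq counts per gene were compared between mice labelled EphA2 null and wild type mice, 3 libraries each. The authors deposited whole-number raw counts per Ensembl gene, not normalised. The aligner, the counter, the strand setting, the build and the annotation were not given in the sources used here. Per the labels' series text, miRNeasy kit RNA was read on a HiSeq instrument. Columns were matched to samples by title. GENCODE M21 on GRCm38 gave names, positions and exon lengths for 24991 of 25006 identifiers and was not checked against the annotation used for counting. No pair of libraries agreed within sampling noise (the smallest chi-square per degree of freedom within a genotype was 10.6, for wild type 1 and 2).

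Genes were filtered with filterByExpr, scaled with TMM factors and tested with edgeR 4.0.16 (glmQLFit, glmQLFTest; R 4.3.3) over all genes, with Benjamini-Hochberg adjustment and a threshold of 0.05. Genotype was the only term for the genotype comparison; title number range was tested beside genotype. The SE is the size of a log2 fold change divided by the square root of F. DESeq2 1.42.0, limma voom (limma 3.58.1), other scalings and filters, summed libraries and each library left out were alternatives; edgeR was tested on simulated counts. Fits of title number within a genotype, with 3 libraries each, and other scalings of the likeness values were added after the data were seen.

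The 7 genes, the 9 transport lists, the marker lists and the tests were chosen with earlier results of these data known. Named list genes are the 4 largest called by title number in each list, or otherwise the 2 with the smallest p; others are marked as chosen after their values were seen. Among genes named by likeness of pattern (the 2 closest to each of the 7), some are not reported here.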

Additional observations from a re-analysis of the deposited data

How the results depend on the processing

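No alternative that was run called any of the 7 genes by genotype. No paired analysis was possible because the labels carry no replicate numbers and no title number occurs in both genotypes; the title number range, a wider grouping, was fitted as a term. Genotype estimates changed sign for Aqp5 with title number as a term (-0.10), with summed libraries (-0.078), within the lower title numbers (-0.23) and without the library labelled EphA2 null 3 (-0.016, range when libraries were left out -0.016 to 0.40), for Atp1b1 within the higher title numbers (0.061), for Slc12a2 within the higher title numbers (-0.0058) and in the range over left-out libraries (-0.046 to 0.12; -0.046 without wild type 1, -0.0098 without the library labelled EphA2 null 2), and for Cftr in that range (-0.096 to 0.63; -0.096 without wild type 3, -0.090 without the library labelled EphA2 null 2). The number of genes called by genotype was 1 (1 higher, 0 lower), but 6 in DESeq2 (4 higher, 2 lower) and 0 with summed libraries (0 higher).

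By title number, Slc12a2 changed sign with library size only (-0.011) and with upper quartile factors (-0.023). Upper quartile factors moved the median of all genes by -0.11 on the log2 scale. The 5859 calls (3014 higher, 2845 lower) became 2460 higher and 3674 lower with library size only and 2450 higher and 3853 lower with upper quartile factors. They ranged from 846 to 5803 over left-out libraries (595 to 3221 higher, 251 to 2582 lower), with the 846 without the library labelled EphA2 null 1, 3549 without wild type 2 and 3646 without wild type 3; between 2 and 5 of the 7 genes were called. Fits within a genotype, which set 1 library against 2 and assume that it varies like them, made 2110 calls (1642 higher, 468 lower) with 2 of the 7 genes among those labelled EphA2 null and 3669 (1358 lower) among wild type libraries; nothing is rested on them. The cause was not tested, although fewer libraries enter these fits. Car14, Aqp6, Adcy6 and Car2 lost their call under several alternatives. Depth limits the low genes most: Cftr had at most 113 counts per library.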

Other observations

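Of the 105 listed transport genes tested, 3 had an unadjusted p under 0.05 by genotype, and all 3 had an adjusted p of 0.9996 in edgeR. They are named here after their values were seen. Slc12a5, a potassium chloride cotransporter gene best known from neurons, had 1.74, 1.38 and 1.27 CPM in libraries labelled EphA2 null 1, 2 and 3, and 2.51, 3.09 and 3.24 CPM in wild type 1, 2 and 3. These groups did not overlap, with a log2 fold change of -1.01 ± 0.26 (SE, n = 3 each; unadjusted p = 0.00585, edgeR). Kcnn4, a calcium-activated potassium channel gene, had 1.24, 1.67 and 2.28 CPM in libraries labelled EphA2 null and 0.917, 1.05 and 0.743 CPM in wild type, with a log2 fold change of 0.93 ± 0.34 (unadjusted p = 0.0265, edgeR). Aqp11, an aquaporin gene of intracellular membranes, had 0.183, 0.295 and 0.523 CPM in libraries labelled EphA2 null and 0.772, 0.641 and 0.810 CPM in wild type, with a log2 fold change of -1.11 ± 0.44 (unadjusted p = 0.0377, edgeR). Over all 12847 tested genes, 1.18% had an unadjusted p under 0.05, and 3.73% did not overlap between the genotypes.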
